A study of Homo sapiens with 4 samples.

Results

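The 9 genes described here were grouped as neuroendocrine transcription and splicing regulators, although POU2F3 is a tuft cell factor. They were the transcription factors NEUROD1, INSM1, POU3F2, POU2F3, ONECUT2, NKX2-1 and PROX1, the splicing factor SRRM4, and REST, a repressor of neuronal genes. They were taken by name from the 20037 protein-coding genes of the RefSeq annotation of GRCh38.p14. For each gene, every accessible-chromatin summit from 50 kb before the gene to 50 kb beyond it was collected. Accessibility was measured by ATAC-seq, in which a transposase cuts and tags open DNA, in LNCaP cells (2 libraries) and in enzalutamide-resistant cells derived from them (2 libraries). LNCaP is an androgen-sensitive prostate cancer line, labelled wild type. The resistant cells, labelled LNCaP-resistance, were treated with enzalutamide, an antiandrogen drug, after adaptation to serum stripped of hormones and a stepwise rise in dose. The study made several resistant sublines, and the labels do not say which one these libraries came from. Both kinds of cell had the same culture medium and library kit in the labels, and nothing stated that replicates came from separate cultures.

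Neuroendocrine transformation is a known route by which prostate adenocarcinoma escapes hormone therapy. NEUROD1, INSM1, POU3F2 (also called BRN2) and ONECUT2 are transcription factors of neuronal or endocrine development, NKX2-1 is a lung and thyroid lineage factor expressed in many small cell carcinomas, POU2F3 specifies tuft cells, and PROX1 acts in lymphatic, liver and neural development. REST holds neuronal genes silent in other tissues, and SRRM4 promotes inclusion of neural microexons, among them one that produces a truncated REST protein. Open chromatin at a start site is a common feature of active and poised promoters, so summits report accessibility and not the level of RNA.

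The DNA before the start sites bears on the summits described below, because in POU3F2, ONECUT2, SRRM4 and REST some summits lay within it. Of the 9 genes, 6 had an entry in the RefSeq promoter table of GRCh38.p14, and the 250 bases before each of their start sites are shown to place the summits near them. REST and NKX2-1 have 2 start sites each. Capitals mark the GC box (GGGCGG, on the other strand CCGCCC), the CCAAT box, the CRE core TGACG (on the other strand CGTCA), the E-box CAGCTG, the NKX2 core CAAGTG and the forkhead motif TGTTTAC. SRRM4 lies at chr12:118981291-118981540 and POU3F2 at chr6:98834324-98834573, both on the plus strand. ONECUT2 lies at chr18:57435124-57435373 on the plus strand, and the sequences of REST at chr4:56907650-56907899 and chr4:56908660-56908909 on that strand. The sequences of NKX2-1 lie at chr14:36520233-36520482 and chr14:36519557-36519806 and that of NEUROD1 at chr2:181680518-181680767, all on the minus strand.
SRRM4: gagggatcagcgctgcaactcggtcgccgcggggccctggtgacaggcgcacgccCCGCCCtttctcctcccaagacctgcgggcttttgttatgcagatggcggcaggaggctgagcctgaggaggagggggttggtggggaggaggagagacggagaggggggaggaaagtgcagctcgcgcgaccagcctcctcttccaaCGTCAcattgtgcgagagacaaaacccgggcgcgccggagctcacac
POU3F2: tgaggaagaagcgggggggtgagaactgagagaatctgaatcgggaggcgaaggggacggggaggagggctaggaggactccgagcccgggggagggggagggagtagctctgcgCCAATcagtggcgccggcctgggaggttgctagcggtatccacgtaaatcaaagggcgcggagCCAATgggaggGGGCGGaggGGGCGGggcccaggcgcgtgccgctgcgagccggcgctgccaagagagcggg
ONECUT2: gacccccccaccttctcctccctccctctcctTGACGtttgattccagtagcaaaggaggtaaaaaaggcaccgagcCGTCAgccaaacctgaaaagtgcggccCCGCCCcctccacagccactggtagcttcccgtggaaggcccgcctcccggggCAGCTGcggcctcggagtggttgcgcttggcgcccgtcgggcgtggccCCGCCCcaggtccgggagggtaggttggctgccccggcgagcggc
REST, upstream start: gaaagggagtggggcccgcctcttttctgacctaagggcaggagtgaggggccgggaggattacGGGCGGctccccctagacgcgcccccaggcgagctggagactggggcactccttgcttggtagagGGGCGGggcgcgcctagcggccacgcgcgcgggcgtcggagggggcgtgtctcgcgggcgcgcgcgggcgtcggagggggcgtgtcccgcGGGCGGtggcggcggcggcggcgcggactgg
REST, downstream start: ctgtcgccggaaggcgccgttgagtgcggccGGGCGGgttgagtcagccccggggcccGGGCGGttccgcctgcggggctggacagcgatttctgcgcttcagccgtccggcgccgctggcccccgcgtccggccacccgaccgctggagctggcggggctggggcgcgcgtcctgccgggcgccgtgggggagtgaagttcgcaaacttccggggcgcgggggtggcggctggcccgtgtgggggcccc
NKX2-1, upstream start: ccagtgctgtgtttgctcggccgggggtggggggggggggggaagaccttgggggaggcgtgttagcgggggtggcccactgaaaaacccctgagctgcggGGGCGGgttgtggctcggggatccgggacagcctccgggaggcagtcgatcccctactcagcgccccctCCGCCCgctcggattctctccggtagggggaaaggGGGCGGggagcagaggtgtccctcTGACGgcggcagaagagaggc
NKX2-1, downstream start: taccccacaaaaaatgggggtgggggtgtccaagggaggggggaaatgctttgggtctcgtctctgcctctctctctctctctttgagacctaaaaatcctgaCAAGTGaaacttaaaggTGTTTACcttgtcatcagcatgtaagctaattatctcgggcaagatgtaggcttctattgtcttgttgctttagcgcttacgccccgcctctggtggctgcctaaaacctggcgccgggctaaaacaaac
NEUROD1: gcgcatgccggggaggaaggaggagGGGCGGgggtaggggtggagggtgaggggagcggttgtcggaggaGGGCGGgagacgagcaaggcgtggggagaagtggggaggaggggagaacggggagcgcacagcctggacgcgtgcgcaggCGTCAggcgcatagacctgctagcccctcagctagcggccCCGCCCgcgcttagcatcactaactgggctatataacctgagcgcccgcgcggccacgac

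The downstream start of NKX2-1 was preceded by sequence of 49.6% G and C, below the median of 58.0% over all promoters. The other sequences were above it, with 66.4% in SRRM4, 69.2% in POU3F2, 68.8% in ONECUT2, 76.8% and 78.4% in REST, 70.8% at the upstream start of NKX2-1 and 70.0% in NEUROD1. Each of these held at least 1 GC box, which is bound by SP factors and was present in 42.6% of the 35116 promoters of that length, searched on both strands. The downstream sequence of NKX2-1 held none. POU3F2 held CCAAT at 135 and 72 bases before the start, a motif found in 32.0% of promoters. The CRE core occurred in SRRM4, ONECUT2, the upstream sequence of NKX2-1 and NEUROD1, and in 21.2% of promoters. The E-box CAGCTG occurred in ONECUT2 alone of these genes, and in 14.0% of promoters. The downstream sequence of NKX2-1 held the NKX2 core (9.50% of promoters) and the forkhead motif (2.98%). None of these sequences held the E-box CATATG (2.63%), the POU octamer ATGCAAAT (1.63%) or the ONECUT core ATCGAT (0.655%). INSM1, POU2F3 and PROX1 were not matched in the promoter table, and both ends of these genes were used in place of a start site.

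The 4 lists of summits held 117245, 107344, 70866 and 45618 positions, in the order LNCaP replicates 1 and 2 and resistant replicates 1 and 2, and this order is used for all values below. They gave no read counts, so the depth was unknown. To remove the scale of the scores, each summit was given its percentile, the percent of summits in its own library with an equal or lower score. A gene without a summit within 3 kb of a start site was given the percentile 0 there. Summits of all libraries, each extended 250 bp both ways, were merged into 151102 regions. No p-value was used, because an exact permutation test of 2 libraries against 2 cannot go below a two-sided p of 0.333. A difference was called where both resistant values lay above, or both below, both LNCaP values. The luminal identity of the cells was checked on luminal prostate markers. A summit near a start was present in all 4 libraries for KLK2, TMPRSS2, FOXA1, HOXB13, FOLH1, STEAP2, KRT8 and KRT18, and in none for KLK3. Summits near a start were also present in all 4 libraries for 2 of 5 fibroblast, 1 of 4 immune, 2 of 3 endothelial and 1 of 3 basal markers, while PTPRC, CD14, COL3A1, DCN and KRT5 had none. The part of other cells in the results was not tested.

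The windows of these regulators held 259 summits in 117 regions. Of these, 27 regions (23.1%) had a summit in all 4 libraries, against 21.1% of all regions. LNCaP-specific regions, found in both LNCaP libraries but in no resistant library, numbered 27 (23.1%), against 27.5% of all regions. Resistant-specific regions, defined the other way round, numbered 5 (4.27%), against 3.84%. They lay in the windows of SRRM4 (2), NEUROD1, POU2F3 and NKX2-1. The other 58 regions were found in some other combination of libraries, 23 of them in resistant replicate 1 alone. Regions found in that library alone were 19.7% of those in the windows, against 7.87% of all regions. Regions found in LNCaP replicate 2 alone were 2.56%, against 9.60%. Without resistant replicate 2, the shortest list, 28 regions were resistant-specific (24.8%, against 12.0% of all regions under this setting). Without LNCaP replicate 2, 44 were LNCaP-specific (38.3%, against 46.9%). Without resistant replicate 1, 9 were resistant-specific (9.47%, against 5.56%). With the same number of summits kept in every library, the windows held 66 regions. Of these, 12 (18.2%) were resistant-specific, 9 (13.6%) were LNCaP-specific and 15 were shared. Over all regions the shares of the specific classes were then 14.9% and 17.1%.

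**Figure D1:**
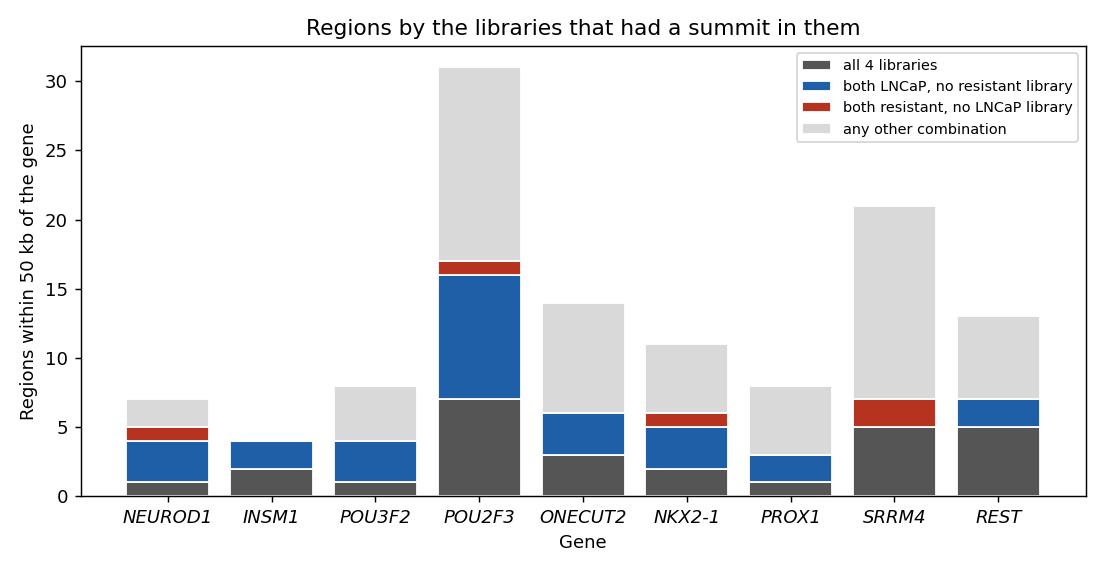
The stacked bars count the merged regions within 50 kb of each of the 9 genes, coloured by the libraries that had a summit in them. SRRM4 has 2 resistant-specific and no LNCaP-specific regions, whereas POU2F3 has 9 LNCaP-specific regions and 1 resistant-specific region.

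Among the 27 shared regions the percentile was higher in both resistant libraries in 6 (22.2%), against 17.7% of all shared regions. It was lower in both in 9 (33.3%), against 41.8%. The higher regions lay in the windows of POU3F2, POU2F3, NKX2-1, SRRM4 and, for 2 of them, REST. The 9 lower regions lay in the windows of INSM1 (2), POU2F3 (4), ONECUT2, SRRM4 and REST. The number of higher regions was 10 without LNCaP replicate 1 (35.7%, against 29.8% of all shared regions), 11 without LNCaP replicate 2 (39.3%, against 25.8%) and 17 without resistant replicate 2 (51.5%, against 29.3%). The number of lower regions was 16 without resistant replicate 1 (55.2%, against 63.9%). By gene, 5 of 9 (NEUROD1, INSM1, POU3F2, POU2F3 and REST) had fewer summits in both resistant libraries, against 61.0% of all protein-coding genes, and none had more, against 1.45%. Without resistant replicate 1 the first count was 8, against 84.0% of genes. Since the resistant lists are shorter, summits were also counted per 10000 summits of the library, a choice made after the data were seen. On that scale 3 genes (POU2F3, NKX2-1 and SRRM4) had a larger share in both resistant libraries, against 46.2% of genes, and 1 (POU3F2) had a smaller share, against 19.4%.

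SRRM4 had the largest ratio of resistant to LNCaP summit shares among the 9 genes. Its window, chr12:118931541-119213051, held 9 and 6 summits in LNCaP and 17 and 9 in resistant cells. The groups met at 9. Per 10000 summits of the library the values were 0.768, 0.559, 2.40 and 1.97, so both resistant libraries lay above both LNCaP libraries. The ratio of the group means was 3.30, which was at or above that of 99.1% of the 19458 genes that could be ranked. Within 2 Mb on either side, outside the window, the same ratio was 1.05. Of the 21 regions in the window, 8 were found in resistant replicate 1 alone, 4 in LNCaP replicate 1 alone and 1 in resistant replicate 2 alone. With equal numbers of summits per library, the window held 3, 2, 9 and 9.

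At the SRRM4 start site itself, resistant replicates 1 and 2 had summits 76 and 100 bp before the start, both inside the sequence shown above. Their percentiles were 92.8 and 81.4, with scores of 79.3 and 31.2. LNCaP replicate 2 had a summit 56 bp after the start at percentile 8.64, and LNCaP replicate 1 had none. The nearest upstream region moved the other way. It lay at chr12:118979942-118980278, 1.43 kb before the start, with percentiles of 71.3, 52.6, 33.7 and 42.4, lower in both resistant libraries. Within 3 kb of the start the strongest summit was therefore the upstream one in LNCaP cells and the one at the start in resistant cells. The LNCaP mean was thus 61.9 ± 13.2 (SD, n = 2) and the resistant mean 87.1 ± 8.06 (SD, n = 2), a change of 25.1 percentile points, at or above that of 93.7% of protein-coding genes. Within 1 kb of the start the upstream region dropped out and the change was 82.7 points, at or above 99.8% of genes.

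No summit inside the SRRM4 gene exceeded percentile 59.9, which was reached in resistant replicate 1. The strongest region there that all 4 libraries shared, 121 kb from the start, had percentiles of 44.6, 13.6, 53.7 and 16.6, which overlapped. Beyond the gene's far end, the 2 resistant-specific regions flanked an end of HSPB8, which encodes a small heat shock protein. The first, at chr12:119176508-119176510, had percentiles of 82.6 and 60.1 in the resistant libraries and lay 2422 bp from an end of HSPB8. This region lay closer still to an end of the lncRNA LOC105370024, which spans chr12:119174065-119176484. The second, inside HSPB8, had 66.5 and 57.5. The summit between them, 93 bp from that end of HSPB8, was shared and its percentiles of 67.2, 74.7, 86.9 and 68.5 overlapped. The strongest shared region of the window, 14045 bp from HSPB8, had 78.2, 79.9, 98.6 and 88.7, higher in both resistant libraries. Both resistant-specific regions therefore lay nearer to HSPB8 than to SRRM4.

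**Figure D2:**
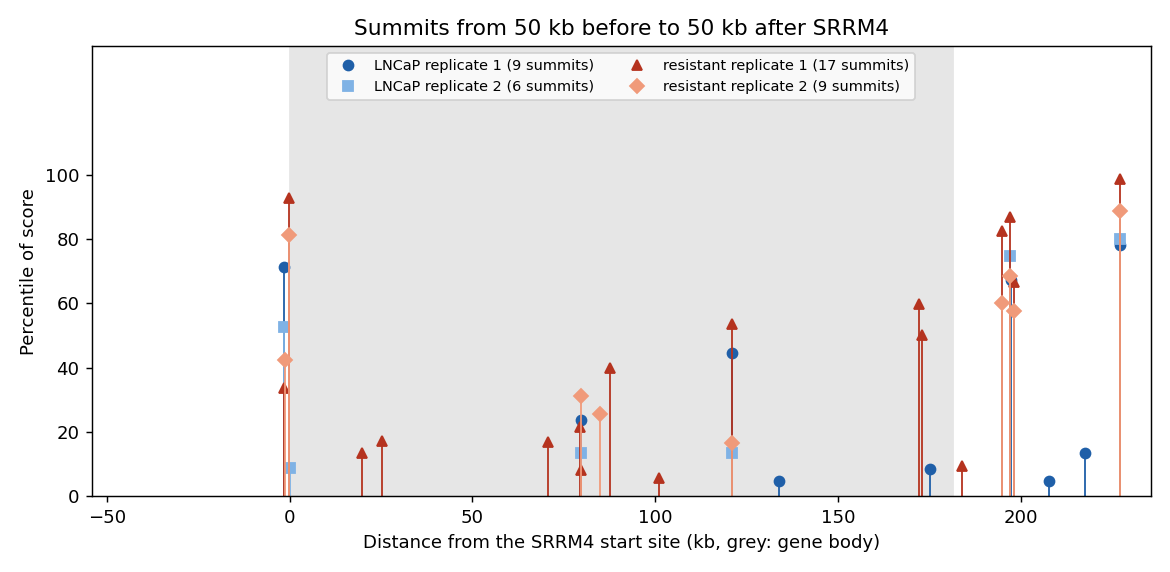
Each symbol is a summit in the window of SRRM4, placed by its distance from the start site in kb, with its within-library percentile of score on the vertical axis. The resistant libraries have summits of percentile 92.8 and 81.4 at the start, where LNCaP has 1 weak summit, and the resistant-specific regions lie beyond the gene body.

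POU3F2 and NKX2-1 were the other genes with a higher start-site percentile in both resistant libraries. In all, 3 of 9 genes were higher by this measure, against 20.7% of protein-coding genes, and without resistant replicate 2 the count was 6, against 38.6%. At POU3F2 the start-site percentiles were 67.8, 67.2, 85.4 and 77.1. The LNCaP mean was 67.5 ± 0.406 (SD, n = 2) and the resistant mean 81.3 ± 5.89 (SD, n = 2), a change of 13.8 points that was at or above that of 88.4% of genes. Both resistant summits, 12 and 36 bp before the start, and that of LNCaP replicate 1, 85 bp before it, fell in the sequence shown above. The summit of LNCaP replicate 2 lay 60 bp after the start. The whole POU3F2 window, start site included, held 6, 5, 3 and 2 summits in the 4 libraries, lower in both resistant libraries. Its 3 LNCaP-specific regions included one 13.5 kb before the start (72.3 and 66.9) and one 534 bp beyond the gene (33.2 and 38.5). The strongest lay inside the neighbouring gene FBXL4, with 76.8 and 69.3.

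At NKX2-1 the strongest summits within 3 kb of a start had percentiles of 28.8, 39.8, 58.4 and 55.2. The LNCaP mean was 34.3 ± 7.73 (SD, n = 2) and the resistant mean 56.8 ± 2.26 (SD, n = 2), and the change of 22.5 points was at or above that of 92.9% of genes. These values came from different positions. A region inside the gene, chr14:36518893-36519284, was shared, with percentiles of 28.8, 3.47, 58.4 and 55.2. The summit nearest a start, 114 bp inside the gene from the upstream start, was found in resistant replicate 1 alone, at percentile 37.1. A further region 0.524 kb before the upstream start, in the antisense transcript NKX2-1-AS1, was LNCaP-specific with 28.7 and 39.8. The window held 6, 5, 7 and 3 summits, which overlapped between the groups, and 4 regions were found in resistant replicate 1 alone. The strongest shared region, 5.46 kb before the start, had 33.5, 55.6, 59.9 and 45.5, also overlapping. The 1 resistant-specific region, with 25.5 and 30.3, lay at the edge of the window, 9787 bp from the gene NKX2-8 and inside the lncRNA LOC105370453. With the score required to be at least 10, NKX2-1 had no start-site summit in either LNCaP library, and percentiles of 36.6 and 15.8 in the resistant libraries.

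NEUROD1 and INSM1 were the 2 genes whose start-site percentile was lower in both resistant libraries, against 21.1% of protein-coding genes. Without resistant replicate 1 this count was 4, against 37.4%. NEUROD1 had 68.9 and 61.5 in LNCaP and no summit within 3 kb in either resistant library. The mean fell from 65.2 ± 5.18 (SD, n = 2) to 0, and 1.25% of genes had an equal or greater decrease. The LNCaP summits lay inside the gene, 2335 and 2359 bp from the start, at chr2:181678158-181678182. Resistant replicate 1 had a summit of percentile 46.9 that lay 3085 bp before the start, just outside the limit of 3 kb. Within 1 kb of the NEUROD1 start no library had a summit, and the sequence shown above held none.

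Farther out, the NEUROD1 window held specific regions of both kinds next to CERKL, a gene of retinal function. The strongest LNCaP-specific region of the window, chr2:181660243-181660253, had percentiles of 90.7 and 92.3 and lay 3143 bp from an end of CERKL. The resistant-specific region, chr2:181657092-181657107, had 74.6 and 71.0 and lay 6 bp from that end. A further LNCaP-specific region, 8.34 kb before the NEUROD1 start, had 67.0 and 27.1. The only shared region lay 34.7 kb before the start, and its percentiles of 65.0, 43.4, 49.0 and 30.3 overlapped. In number, the window held 4, 5, 3 and 2 summits, lower in both resistant libraries, although per 10000 summits the values overlapped (0.341, 0.466, 0.423 and 0.438).

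INSM1 had start-site percentiles of 62.1, 78.0, 59.0 and 53.0. The LNCaP mean was 70.1 ± 11.2 (SD, n = 2) and the resistant mean 56.0 ± 4.22 (SD, n = 2). Of all genes, 10.9% had a change equal to or below the -14.1 points seen here. The summits formed 1 region inside the gene, chr20:20369622-20369657, 1.31 kb from the higher-coordinate end. With equal numbers of summits per library the percentiles were 2.60, 48.3, 36.3 and 53.0. The change was then 19.2 points in the opposite direction, with overlapping groups. The other shared region, at the end of CFAP61, was also lower in resistant cells, with 87.7, 86.2, 58.7 and 54.0. The strongest LNCaP-specific region, 79.5 and 75.6, lay inside RALGAPA2. Within 2 Mb on either side of INSM1, outside its window, the summits per 10000 were 17.7, 17.7, 11.1 and 9.21. The ratio of 0.574 was the lowest of the 9 genes, the others being between 0.872 (REST) and 1.26 (PROX1). In the INSM1 window the counts of 4, 4, 2 and 2 were lower in both resistant libraries, but per 10000 summits the values of 0.341, 0.373, 0.282 and 0.438 overlapped.

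**Figure D3:**
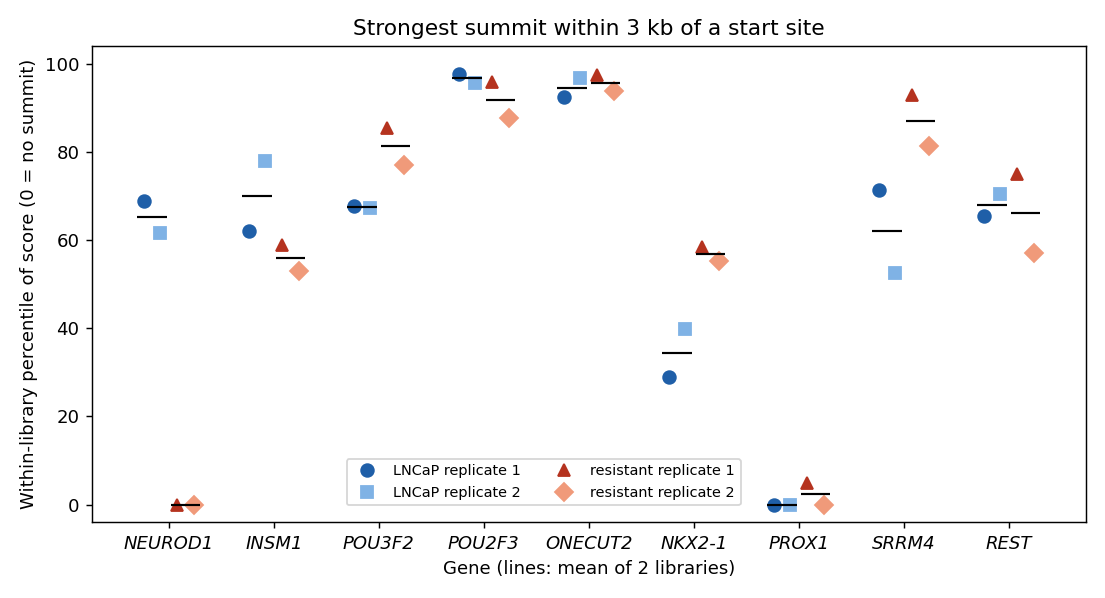
Symbols give, for each of the 4 libraries, the percentile of the strongest summit within 3 kb of a start site. A value of 0 means that there was none, and lines give the mean of 2 libraries. For INSM1, POU2F3 and PROX1 either end of the gene stood for the start site. The resistant libraries lie above the LNCaP libraries for POU3F2, NKX2-1 and SRRM4 and below them for NEUROD1 and INSM1.

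The remaining genes overlapped between the groups by the start-site measure. For POU2F3, which had no start-site entry, the values came from a region 2.94 kb from the higher-coordinate end. Within 3 kb of its lower-coordinate end the strongest region had 72.4, 59.8, 43.0 and 16.5, lower in both resistant libraries. In LNCaP cells the order of the mean percentiles was POU2F3 (96.7), ONECUT2 (94.6), INSM1 (70.1), REST (67.9), POU3F2 (67.5), NEUROD1 (65.2), SRRM4 (61.9), NKX2-1 (34.3) and PROX1 (0). POU2F3 overlapped with ONECUT2, and the 5 genes from INSM1 to SRRM4 could not be ordered beyond the spread of their libraries. In resistant cells the order was ONECUT2 (95.6), POU2F3 (91.8), SRRM4 (87.1), POU3F2 (81.3), REST (66.1), NKX2-1 (56.8), INSM1 (56.0), PROX1 (2.40) and NEUROD1 (0). There the values of the first 4 genes overlapped with those of their neighbours, and REST, NKX2-1 and INSM1 also overlapped.

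POU2F3 had the most summits of the 9 windows, with 23, 21, 15 and 9, lower in both resistant libraries. Per 10000 summits these were 1.96, 1.96, 2.12 and 1.97, with both resistant values slightly above both LNCaP values. Its strongest shared region, inside the gene and 2.94 kb from the higher-coordinate end, had percentiles of 97.7, 95.7, 95.9 and 87.7. Near the lower-coordinate end, a summit 126 to 140 bp inside the gene had 29.2, 29.1 and 37.4 and was missing from resistant replicate 2. A region 1.42 kb before that end was lower in resistant cells, with 72.4, 59.8, 43.0 and 16.5.

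Inside POU2F3 the only resistant-specific region, chr11:120240115-120240126, lay 3.48 kb from the lower-coordinate end and had 42.3 and 38.0. Farther into the gene, at 120241525, both LNCaP libraries had a summit at the same base with 73.3 and 73.9. The strongest LNCaP-specific region, chr11:120261642-120261646, had 89.1 and 72.9. The largest decrease in a shared region, 25.7 kb from the higher-coordinate end, went from 56.1 and 61.5 to 27.1 and 16.5, a change of -37.0 points. The shared region higher in resistant cells lay in the neighbouring gene TLCD5, with 74.1, 76.2, 86.3 and 79.2.

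ONECUT2 had a strong summit at its start in every library. The summits lay 50 to 106 bp before the start, within the sequence shown above, at percentiles of 92.3, 96.8, 97.4 and 93.7. The difference of 1.02 points was smaller than the pooled SD of 2.91. Inside the gene, 10.5 kb from the start, a shared region was lower in both resistant libraries, with 63.3, 52.4, 12.7 and 4.43. That change of -49.3 points was the largest decrease among the 27 shared regions. A region 6515 bp beyond the gene had percentiles of 8.58 in LNCaP replicate 1, none in LNCaP replicate 2, and 83.7 and 70.0 in the resistant libraries. The window held 14, 8, 8 and 4 summits, which overlapped at 8. Of its 3 LNCaP-specific regions the strongest had 47.8 and 51.7 and lay nearest to FECH.

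PROX1 had a summit within 3 kb of an end of the gene in resistant replicate 1 alone, at percentile 4.81, and 70.6% of genes had a change equal to or below its 2.40 points. Its shared region inside the gene had percentiles of 93.2, 94.9, 96.1 and 92.9, which overlapped, and the difference of 0.41 points was below the pooled SD of 1.81. The window held 6, 5, 5 and 1 summits. Beyond the higher-coordinate end, a LNCaP-specific region had percentiles of 72.3 and 55.3. Its summits lay 3164 and 3234 bp from that end, just outside the limit of 3 kb. The start-site value of 0 for PROX1 in LNCaP cells depended on that limit. Farther out, LNCaP cells had 1 more specific region, with 28.6 and 20.4, in the lncRNA LINC02775.

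REST, whose product represses neuronal genes, was accessible at its start sites in both kinds of cell. The percentiles were 65.4, 70.3, 75.0 and 57.1, with an LNCaP mean of 67.9 ± 3.49 (SD, n = 2) and a resistant mean of 66.1 ± 12.6 (SD, n = 2). The summits that gave the LNCaP values lay in the sequence before the downstream start shown above. In the sequence before the upstream start, 59 bp before that start, resistant replicate 2 alone had a weak summit of percentile 5.02. The groups overlapped, and the difference of -1.81 points was below the pooled SD of 9.27. A strong shared region 33.5 kb before the start had 91.7, 92.7, 96.0 and 85.9, also overlapping. The largest change in a shared region was 4092 bp from the gene NOA1, at chr4:56959250-56959267. There the percentiles of 99.2 and 99.2 in LNCaP were the highest of any shared region of the 9 windows, and those of 74.6 and 53.3 in resistant cells were lower by 35.3 points. The adjacent region, 5006 bp from NOA1, moved the other way, with 51.6, 52.7, 58.8 and 65.2. The region at the end of POLR2B was also higher in resistant cells, with 68.9, 44.6, 69.6 and 74.1, and there the margin between the groups was less than 1 point. A region 5308 bp beyond the gene had 88.7 and 80.8 in LNCaP, none in resistant replicate 1 and 16.5 in resistant replicate 2. Inside the gene a LNCaP-specific region had 60.9 and 55.3. The window held 12, 9, 7 and 8 summits, lower in both resistant libraries, but per 10000 summits the values of 1.02, 0.838, 0.988 and 1.75 overlapped.

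**Figure D4:**
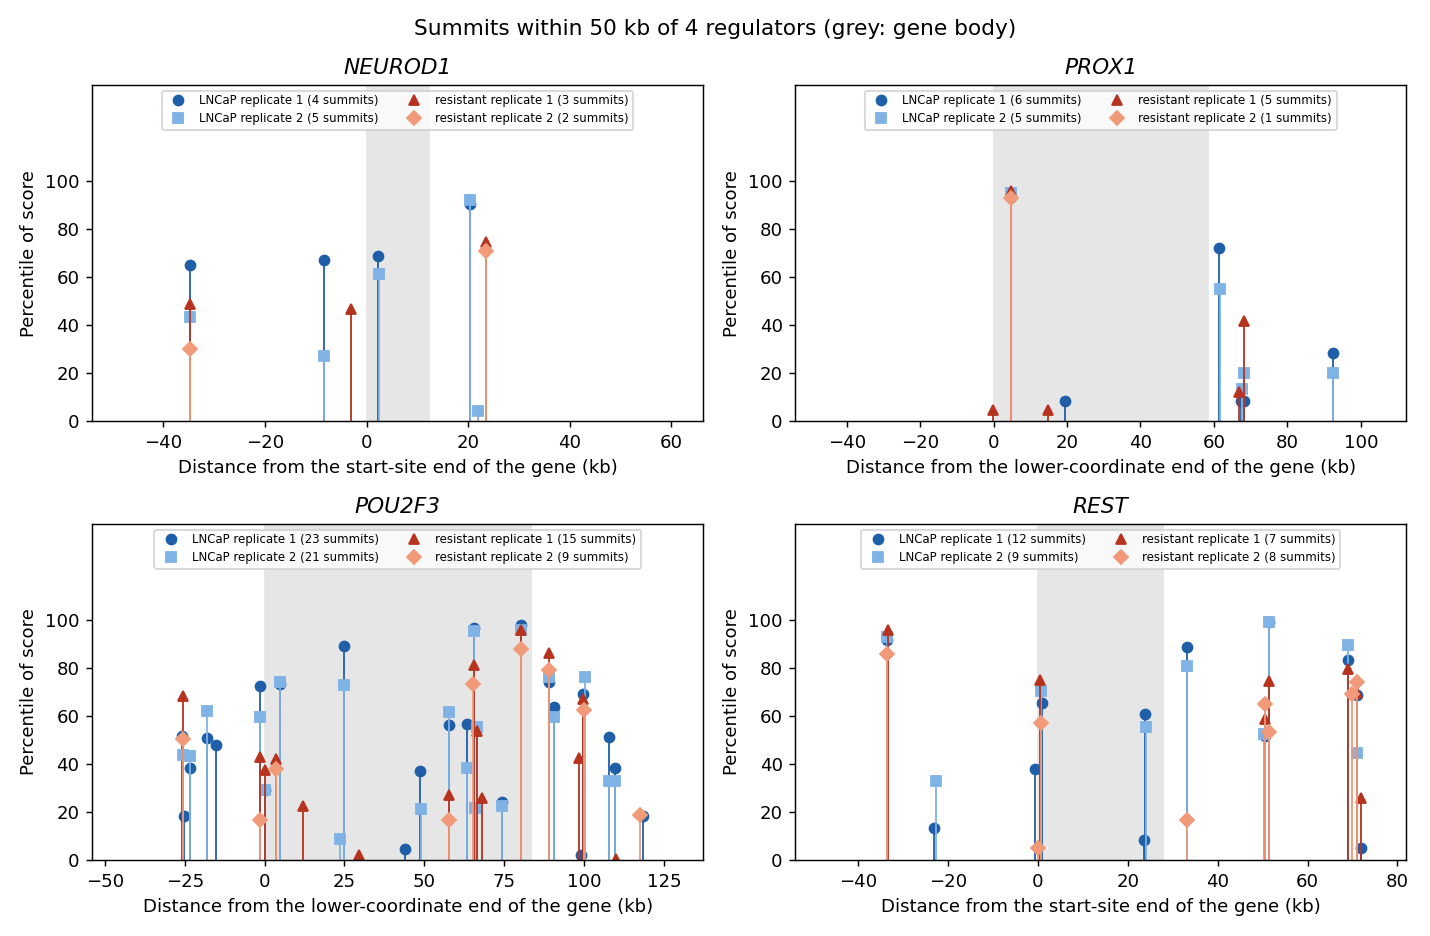
Summits in the windows of NEUROD1, PROX1, POU2F3 and REST are placed by distance in kb from an end of the gene, with the within-library percentile of score on the vertical axis and the gene body in grey. NEUROD1 shows LNCaP summits inside the gene and 3143 bp from CERKL without resistant partners. Its window also shows resistant summits 6 bp from CERKL without LNCaP partners. PROX1 has 1 summit of percentile 92.9 to 96.1 that all 4 libraries share.

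The wider families of these regulators were described by the same start-site measure. Of 33 other transcription factors listed as neural or neuroendocrine, 11 were higher and 6 lower in both resistant libraries. The other 16 overlapped or were 0 throughout, where 20.7% of all protein-coding genes were higher and 21.1% lower. The 11 higher genes included FOXA1, also used above as a luminal prostate marker. Their median change was 0.62 points, against 0 for all protein-coding genes. POU3F3, a paralogue of POU3F2, had percentiles of 0.0324, 15.3, 69.0 and 61.2, a change of 57.5 points. POU4F2 and MYT1, both neural factors, changed by -46.8 and -46.1 points. Among 10 components of REST corepressor complexes, 4 were higher and 1 lower, beside the same shares over all genes, with a median change of 3.40 points. The 1 lower gene, SIN3B, had 61.1 and 48.1 in LNCaP and 0 in both resistant libraries. EHMT2, a histone H3 lysine methyltransferase, changed by 29.9 points and KDM1A, a histone demethylase, by 7.87 points. Among 24 splicing regulators, 9 were higher and 6 lower, against 20.7% and 21.1% of all genes, with a median of 4.04 points. ELAVL4, a neuronal RNA-binding protein, fell from 90.6 and 79.9 to 36.1 and 3.86, CELF4 rose from 24.9 and 9.02 to 78.0 and 78.8, and RBFOX3 changed by -58.5 points. The neural microexon factor SRRM3, a paralogue of SRRM4, came just after these 3, with 44.8, 39.4, 80.6 and 73.1. Each list as a whole is described here by counts and medians alone, and the genes named from it had some of its largest changes.

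Across these 67 genes, those most like each regulator were found by the distance between their start-site percentiles in the 4 libraries. The nearest to POU3F2 was ELAVL1 (distance 2.67), which binds AU-rich RNA, and ELAVL1 was also the nearest to SRRM4 (15.7). ISL1 was the nearest to POU2F3 (4.0), by the values near the higher-coordinate end of POU2F3. NEUROD4 was the nearest to ONECUT2 (6.9). NEUROG2 was the nearest to REST (13.5), EHMT2 to NKX2-1 (18.0) and POU3F1 to INSM1 (20.1). The second nearest were INSM2 for POU3F2, NEUROD4 for POU2F3, ISL1 for ONECUT2, HES6 for SRRM4, POU3F1 for REST, EHMT1 for NKX2-1 and NEUROG2 for INSM1. NEUROD1 and PROX1 lacked a start-site summit in at least 1 library and were not compared in this way.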

How the data were processed

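Accessible chromatin was measured by ATAC-seq in 2 LNCaP and 2 enzalutamide-resistant LNCaP libraries. For every library the authors deposited the positions of its peak summits. The deposited score is on a −log10 scale. Whether it stands for a p-value or a q-value is not given in the sources used here. The submitters' processing notes name hg38, Bowtie2 2.2.5, SAMtools 1.6, MACS2 2.2.6, deepTools 3.5.2 and HOMER 4.11, without roles or parameters. Peaks were listed per library, and read counts were not part of them, so depth and precision are unknown.

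Percentiles were computed within each library, because a score depends on depth. Presence and percentiles can both depend on the length of a list. Summits were extended 250 bp both ways and merged. Gene positions and start sites were taken from RefSeq tables of GRCh38.p14. Of 20037 protein-coding genes, 15843 had a start-site entry, and both ends were used for the others. No genome sequence was used. Part of the luminal marker list is not reported here. Groups were compared by whether their values overlapped, with the same rule over all regions or all protein-coding genes as the background, and values are given as the mean ± SD of 2 libraries. The members and lists were chosen with earlier results of these data known. The genes named were the 9 members, with for each the region nearest the start, every resistant-specific region, the strongest LNCaP-specific and shared regions, and the shared regions of largest change. Further regions, SRRM3, FOXA1 as one of the neural factors and the surroundings of 2 Mb on either side were named after their values were seen. From each related list the 3 largest changes were named, and for each member with a start-site summit in all libraries the 2 most alike genes.

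The labels give the replicate number as a batch, so each resistant library was also compared with the LNCaP library of the same number. The correlation of the deviations of same-numbered libraries over all shared regions was -0.0128. The other alternatives were windows of 100 and 500 bp, flanks of 25 kb, equal numbers of summits, scores no lower than 10, membership by at least 1 library, percentiles among shared regions, removal of summits near ends of other genes, start sites within 1 kb and leaving out each library in turn. The computation was tested on simulated lists. Python 3.11.15, numpy 2.4.6, pandas 2.3.3 and scipy 1.17.1 were used, and figures were drawn with matplotlib 3.10.9.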

Additional observations from a re-analysis of the deposited data

How the results depend on the processing

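The depth of the libraries is unknown and their lists differ in length. The part of depth in the results was not tested. With equal numbers of summits per library, the resistant-specific regions numbered 12 (5 in the report), LNCaP-specific regions 9 (27), shared regions 15 (27) and lower shared regions 3 (9). The windows then held 66 regions, of which 18.2% were resistant-specific and 13.6% LNCaP-specific, against 14.9% and 17.1% of all regions. Of the shared regions in the windows 20% were lower and 60% higher, against 23.7% and 42.8% of all shared regions. Fewer summits were then found at 2 genes (5), a higher start-site percentile at 5 (3) and a lower one at 1 (2). Over all protein-coding genes 18.1% had fewer summits, 48.1% a higher start-site percentile and 5.74% a lower one under this setting. INSM1 then changed by 19.2 points in the opposite direction. A score of at least 10 left 15 shared regions, 3 lower shared regions and 1 gene with a lower start site. The lower regions were 20% of the shared ones, against 28.2% of all shared regions under this setting. A lower start site was then found at 13.4% of protein-coding genes. Removing summits near ends of other genes left 2 resistant-specific regions (2.04%). The share over all regions, from which such summits were not removed, was 3.84%. Membership by at least 1 library gave 32 resistant-specific and 46 LNCaP-specific regions (27.4% and 39.3%, against 12.9% and 52.0% of all regions). Percentiles among shared regions gave 14 higher regions (6 in the report), 51.9% against 35.3% of all shared regions. Within 1 kb of a start 0 genes were lower, against 16.2% of protein-coding genes, because NEUROD1 and INSM1 had no summit there. Counted as a share of the library's summits, a setting chosen after the data were seen, 1 gene had fewer, against 19.4% of protein-coding genes.

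Leaving out each library in turn gave 6 to 28 resistant-specific regions (5.22% to 24.8%, against 5.23% to 12.0% of all regions). LNCaP-specific regions numbered 29 to 44 (25.7% to 38.3%, against 28.6% to 46.9%). Among shared regions, 7 to 17 were higher (24.1% to 51.5%, against 19.9% to 29.8%) and 9 to 16 lower (32.1% to 55.2%, against 47.7% to 63.9%). Fewer summits were found at 5 to 8 genes, against 61.5% to 84.0% of protein-coding genes. The start-site percentile was higher at 3 to 6 genes, against 24.5% to 38.6%, and lower at 2 to 4, against 24.0% to 37.4%. The mean start-site percentile of SRRM4, POU3F2 and NKX2-1 stayed higher in resistant cells under each alternative run on it: equal numbers of summits, the score limit of 10, start sites within 1 kb and each library left out.

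With the replicate block, in which libraries of the same number were paired, 8 shared regions were higher in both pairs and 11 lower. These were 29.6% and 40.7%, against 23.3% and 49.3% of all shared regions. Fewer summits were found at 7 genes, against 68.8% of protein-coding genes. At the start site 3 genes were higher and 3 lower, against 25.9% and 26.3%. None of these counts moved by more than 1.5 times.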
